A study of Mus musculus with 15 samples.

Results

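The Myc, Max and Mxd network was examined through 9 genes, Myc, Mycn, Max, Mxd1, Mxi1, Mxd3, Mxd4, Mnt and Mlx. The members were all probe sets whose gene symbol in the array annotation is one of these names, which gave 21 of 45037 probe sets and 9 of 18193 annotated genes. All 9 genes and 16 of the 21 probe sets passed the filter on low signals. Myc and Max have 1 probe set each, Mycn, Mxd1 and Mxd3 have 3, Mxi1, Mnt and Mlx have 2, and Mxd4 has 4.

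The data come from 15 Affymetrix mouse arrays in 5 groups of 3, taken from a mouse model of glioma in which the S100beta promoter drives verbB, a viral oncogenic form of the epidermal growth factor receptor. Tumorspheres are free-floating cultures of tumour cells; lines 3447 and 4346 came from brain tumours of S100beta-verbB mice that were either p53-/- or p53+/-. Each line was injected into the brains of 3 immunodeficient hosts (strain NOD.Cg-Prkdc<scid>Il2rg<tm1Wjl>/SzJ), and the tumour cells were cultured again and sorted by flow cytometry. Side population (SP) cells exclude a DNA dye through ABC transporters, and the remaining cells are the non-SP. Both populations were measured in line 3447 and SP cells alone in line 4346. The controls are SP and non-SP neurospheres, cultures of untransformed neural stem and progenitor cells from mice with these same genotypes, S100beta-verbB with p53-/- or p53+/-, so the controls carry verbB and a p53 deletion too. The labels do not say which arrays are p53-/- and which p53+/-. Their text names 3 independent mice as the source of the neurospheres in one place and mice injected with neurospheres in another. Each tumour group represents 1 line.

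The network consists of transcription factors with a basic helix-loop-helix leucine zipper, which bind the E-box CACGTG as pairs. Myc and Mycn pair with Max and activate genes of ribosome production, metabolism and cell growth, whereas Mxd1, Mxi1, Mxd3, Mxd4 and Mnt compete for Max, bring Sin3 and histone deacetylase corepressors to the same sites and repress. Mlx is a second shared partner, which pairs with the glucose-sensing factors Mlxip and Mlxipl and with Mnt, Mxd1 and Mxd4. In the developing brain Mycn is known for keeping neural progenitors dividing, and Mxd genes are known for rising as precursors leave the cell cycle, except Mxd3, which is found in cells in S phase.

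The E-box stretches of the members' own promoters are shown first because CACGTG is the sequence that these proteins bind. Of the 9 members, 8 had an entry in the RefSeq promoter table (GRCm38.p6, 250 bases before to 50 after each annotated start), with 10 windows in all. CACGTG, which reads the same on both strands, was found in 4 of the 8 genes, Max, Mxd4, Mnt and Mlx, and in none of the windows of Mycn, Mxd1, Mxi1 or Mxd3. In the same table it was found in 8.09% of 27025 genes and in 7.15% of 32851 windows. Each line gives the gene's strand 5′ to 3′ with the E-box in capitals.
Max, chr12:76962239-76962271, minus strand: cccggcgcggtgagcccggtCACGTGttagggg
Mxd4, chr5:34187904-34187949, minus strand: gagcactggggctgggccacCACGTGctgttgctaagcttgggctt
Mnt, chr11:74830781-74830826, plus strand: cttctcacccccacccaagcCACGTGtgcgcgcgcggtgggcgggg
Mlx, chr11:101087230-101087275, plus strand: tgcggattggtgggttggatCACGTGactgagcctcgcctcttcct
The E-box of Max spans the annotated start and ends 3 bases past it. The E-boxes of Mlx, Mnt and Mxd4 lie 34, 117 and 213 bases before the start. A match describes the letters of these windows and is no measure of binding.

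All signals below are the deposited array intensities, and all fold changes are log2 differences of quantile-normalized signals plus 16, given ± SE. Adjusted p-values are from limma over 11908 genes, with all 15 arrays in 1 fit. They measure only the spread between these arrays. The level of 1 gene cannot be set against that of another on this array. In bulk cells, fewer cells of a type and less RNA per cell cannot be told apart. The 15 arrays had median signals from 40.0 to 89.3, the highest on array 3 of 3447 SP, whose mean rank correlation with the other arrays of its group was 0.855, against up to 0.917 elsewhere. Array 3 of 4346 SP had an actin 3′ to 5′ ratio of 5.30, against 2.49 to 3.29 on the others. The summed signals of 8 neural stem markers ran from 32597 to 34983 on the tumour SP arrays, where Prom1 lay below the array median, from 36408 to 39577 in 3447 non-SP, and from 38489 to 51928 on the neurosphere arrays. Of the 8, 4 fell in 3447 SP, 5 in 4346 SP and 2 in the non-SP against neurosphere cells of the same sort (medians -1.01, -1.16 and -0.81), and none rose. The shares of all genes that fell were 8.96%, 10.3% and 8.21%. Of 8 microglial and macrophage markers, 6 or 7 lay below the array median on all 3 arrays of every group. The cultures differed in lineage markers as well. The 5 measured oligodendrocyte markers summed to 12894 to 19732 on the tumour arrays and 3120 to 6818 on the neurosphere arrays, where Mbp, Mog, Mag and Mobp lay below the array median, and Mog, Mag and Mobp did so in the tumour groups too. The part of these differences in the comparisons of tumour and neurosphere cells was not tested.

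**Figure D1:**
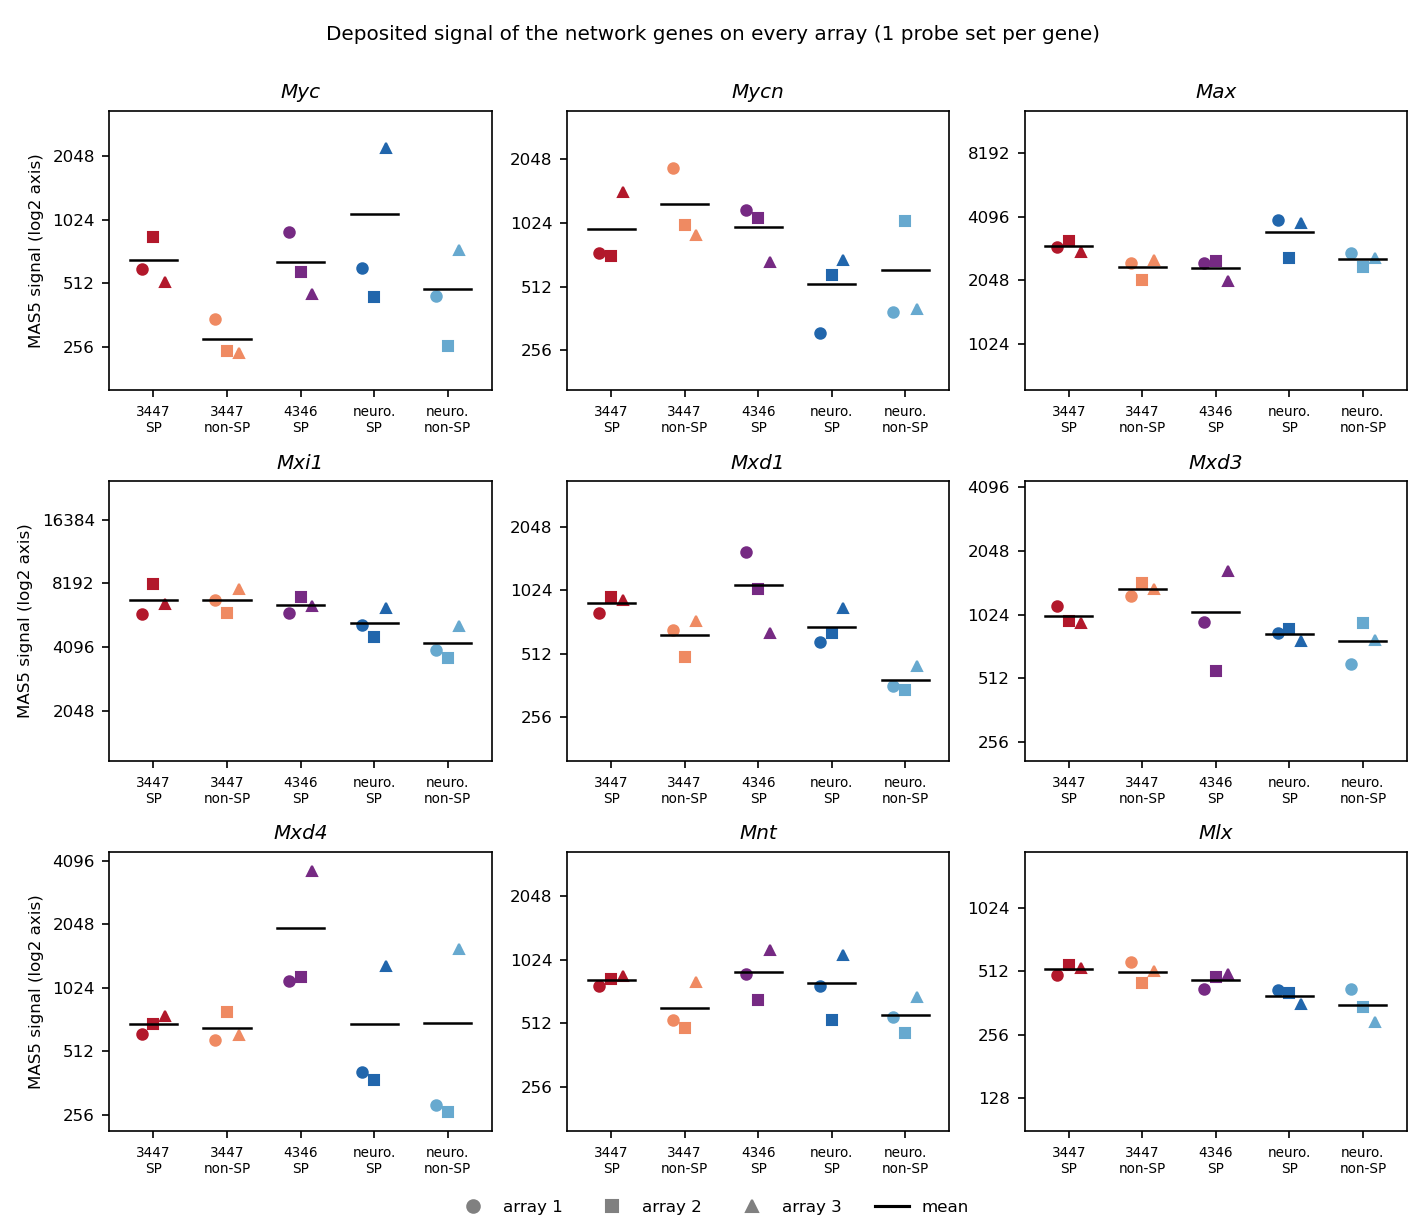
Deposited array signal of the 9 genes, 1 panel per gene, on a log2 axis for the 5 groups, with array 1 as a circle, 2 as a square, 3 as a triangle and the group mean as a bar. Mxi1 is lower in neurosphere non-SP (3645 to 5158) than in 3447 non-SP (5912 to 7693), while Myc and Mxd4 are high on the array numbered 3 of both neurosphere groups.

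The SP and non-SP of 1 culture address what marks the cells that exclude the dye. In line 3447 none of the 9 genes passed the test, where 0.00840% of all genes did, and 0 of 9 passed in neurospheres, where 0.0168% did (0.0588% with the neurosphere arrays paired by number). At an unadjusted p under 0.05 the counts were 1 of 9 members in line 3447 and 2 of 9 in neurospheres, against 7.21% and 3.59% of all genes. Myc and Mxd1 had the largest estimates above 0 of the 9 genes in both sources. Myc was 2.24-fold higher in the SP of line 3447 and 1.98-fold higher in the SP of neurospheres by these estimates, with intervals on the log2 scale of 0.11 to 2.22 and -0.07 to 2.04. The neurosphere value rested largely on SP array 3, and without that array it was 0.30 on the log2 scale (adjusted p = 0.999).

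Myc is the inducible activator of the network. Its signals in line 3447 were 600.4, 854 and 521 in the SP and 349, 245 and 241 in the non-SP. All SP arrays of the line were above all its non-SP arrays. The log2 difference was 1.16 ± 0.50 (adjusted p = 0.655). In neurospheres the SP arrays read 606, 443 and 2230.0 and the non-SP arrays of the same numbers 446, 258 and 739. The groups overlapped, yet the SP array was the higher one in each of the 3 pairs, by 0.47, 0.89 and 1.60 on the log2 scale, and the group difference was 0.99 ± 0.50 (adjusted p = 1.00).

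The difference between the SP effects of the 2 sources was 0.18 ± 0.70 for Myc, with a 95% interval from -1.32 to 1.67 (limma adjusted p = 0.999). No member differed between the sources by this test (9 adjusted p of 0.999, 0 of 9 members and 2.23% of all genes at an unadjusted p under 0.05, and 0% of all genes called). Outside the 9 probe sets that stand for the genes, 1448878_at of Mxd3 gave -1.38 ± 0.64 in the fit of every probe set (unadjusted p = 0.0438, adjusted p = 1.00). The average of both SP effects, a comparison chosen after the data were seen, was 1.08 ± 0.35 for Myc (adjusted p = 0.337), with 0.168% of all genes called. At an unadjusted p under 0.05 4 of 9 members (Myc, Max, Mxd1 and Mnt) and 8.78% of all genes stood there, each of the 4 above 0. In this average, arrays of the same number in the neurosphere SP and non-SP deviated together, and with those arrays paired the adjusted p of Myc was 0.0309, beside 0.798% of all genes called. In the fit of every single probe set the paired value for Myc was 0.0579. At the level of genes Myc passed for this average in 2 of 32 alternatives, both with the neurosphere arrays paired. It passed in 0 of 15 unpaired fits that left out 1 array (limma adjusted p from 0.172 to 0.659).

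Mxd1 encodes a Max partner that represses, and its SP and non-SP signals were separated in both sources on 2 probe sets. On the first, 1434830_at, line 3447 had SP signals of 797, 948 and 922 and non-SP signals of 667, 496 and 730. The neurosphere SP had 579.9, 642 and 839 and the non-SP 359, 343 and 448. The log2 differences were 0.50 ± 0.29 (adjusted p = 0.770) and 0.87 ± 0.29 (adjusted p = 1.00).

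On the second Mxd1 probe set, 1455104_at, the separation was wider. The SP of line 3447 had 615, 707 and 830, and its non-SP 367, 284 and 309.8. The neurosphere SP had 623, 574 and 636, and its non-SP 295, 216 and 296. In both sources every SP array was above every non-SP array, by 1.10 ± 0.29 and 1.22 ± 0.29 on the log2 scale in the fit of every probe set (adjusted p = 0.446 and 0.912, with 0 and 3 of all 45037 probe sets called). The average of both effects was 1.16 ± 0.20, with an adjusted p of 0.0823, and of 0.0321 with the neurosphere arrays paired, where 0.0133% and 0.131% of all probe sets were called. On 1434830_at, the probe set that stands for the gene, the average was 0.68 ± 0.20 (limma adjusted p = 0.277). At the level of genes Mxd1 passed for this average in 1 of 32 alternatives and in 0 of 15 fits that left out 1 array. The third probe set did not pass the filter. The SP of line 4346, for which there is no non-SP, had 876, 625 and 369 on the second probe set.

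**Figure D2:**
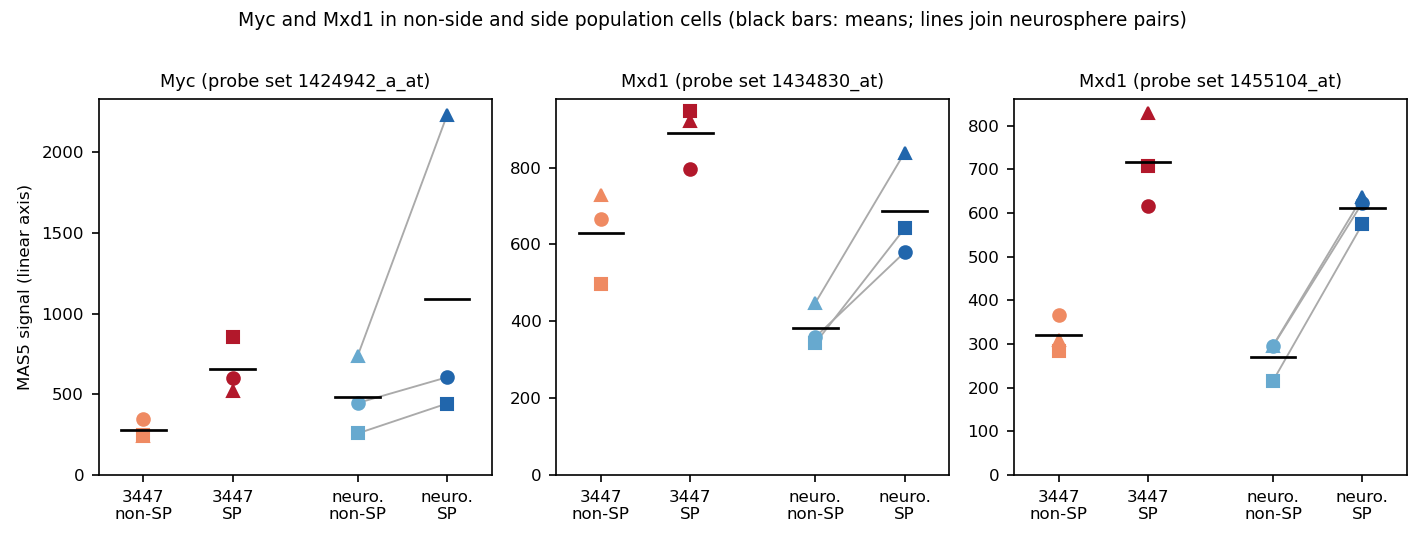
Deposited signal of Myc and of 2 Mxd1 probe sets in non-SP and SP cells of line 3447 and of neurospheres on a linear axis, with lines joining the neurosphere arrays of the same number. Mxd1 on 1455104_at lies at 216 to 367 in non-SP and at 574 to 830 in SP cells, with no overlap, while Myc overlaps in neurospheres, where non-SP arrays at 446 and 739 lie above the SP array at 443.

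None of the other 7 genes passed either. For Max, the common partner, the SP arrays of line 3447 (2947, 3159.5 and 2805) were all above the non-SP arrays (2481, 2065 and 2547), with a log2 difference of 0.33 ± 0.17 (adjusted p = 0.733). Neurosphere Max overlapped between SP and non-SP and differed by 0.39 ± 0.17 (adjusted p = 1.00). For Mxd3, line 3447 had a lower SP (1128, 959 and 939 against 1257, 1438 and 1360), with a log2 difference of -0.43 ± 0.30 on 1438847_at (adjusted p = 0.825), and its groups did not overlap. The other Mxd3 probe sets gave larger estimates in the fit of every probe set, about as large as that of Myc. On 1448878_at the SP of line 3447 had 174, 73.5 and 158 and the non-SP 250.5, 280.4 and 349.6, with no overlap and a difference of -1.19 ± 0.45 (unadjusted p = 0.0166, adjusted p = 0.747). On 1422970_at, which lay above the array median on 6 of 15 arrays, it was -1.19 ± 0.59 with overlap (adjusted p = 0.808). Neurosphere Mxd3 differed by 0.15 ± 0.30 on 1438847_at, 0.19 ± 0.45 on 1448878_at and -0.27 ± 0.59 on 1422970_at. Across the network 3 genes were higher and 1 lower with no overlap in line 3447, where 17.5% of all genes did not overlap, 9.07% higher and 8.44% lower. In neurospheres Mxd1 alone was higher with no overlap, against 4.37% of all genes higher and 7.60% in either direction. The median log2 difference of the 9 members was 0.08 in line 3447 and 0.31 in neurospheres, and -0.01 and 0.04 over all genes.

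Genes of dividing cells were examined in the same contrast. All 20 tested proliferation genes had estimates below 0 in the SP of line 3447, with a median log2 difference of -0.41. By limma 0 of 20 passed, and 6 of 20 had an unadjusted p under 0.05, against 7.21% of all genes. Their summed signals ran from 39984 to 62786 in the SP and from 66102 to 83126 in the non-SP. In neurospheres 12 of 20 were above 0, with a median of 0.06. The part of cell division in the Mxd3, Myc and Mxd1 values was not tested.

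**Figure D3:**
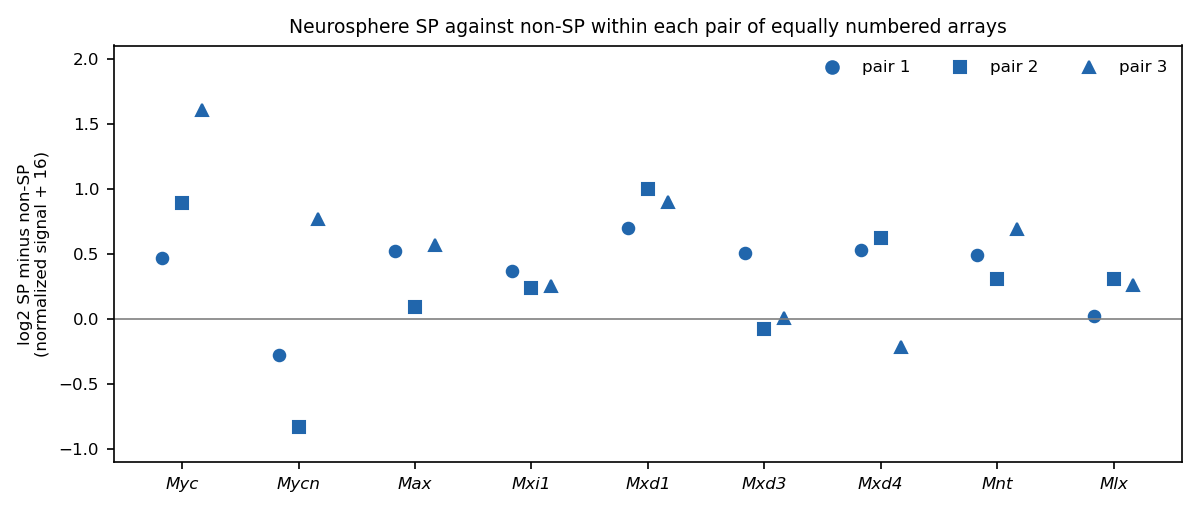
Log2 difference between SP and non-SP within each of the 3 neurosphere pairs of arrays with the same number, for the 9 genes, on a linear axis of log2 units. Myc, Max, Mxi1, Mxd1, Mnt and Mlx are above 0 in all 3 pairs, Mycn in 1 of 3, and the 3 differences of Mxd1 run from 0.70 to 1.00.

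Array 3 of the neurospheres stood apart for several members. For Myc it exceeded the mean of the other arrays of its group by 2.06 (SP) and 1.14 (non-SP) on the log2 scale. In the SP 98.5% of genes had a smaller such difference. For Mxd4 the values were 1.68 and 2.47, and for Mnt 0.74 and 0.44. Txnip, a glucose-responsive gene that Mlx and Mlxip regulate, was also highest there, at 4659 in the SP and 4045 in the non-SP against 1111 to 2058 on the other neurosphere arrays.

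Tumour SP cells were set against neurosphere SP cells, and the non-SP cells likewise. Tumour formation, the single line in each tumour group and the lineage markers differ together in these comparisons and cannot be told apart. The comparisons of the SP of 3447 and of 4346 share the same 3 neurosphere SP arrays. Mxi1 was higher in line 3447, in both sorted populations, and Max was lower in line 4346. Myc did not pass in any of them, and its estimates, below 0 in all 3, turned above 0 in both SP comparisons without neurosphere SP array 3.

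Among the members, 1 of 9 passed higher and 0 lower in 3447 SP against neurosphere SP, where 19.6% of all genes passed, 10.7% higher and 8.96% lower. In 4346 SP 0 of 9 passed higher and 1 lower, where 24.3% passed, 14.0% higher and 10.3% lower. In the non-SP 1 of 9 passed higher and 0 lower, where 19.4% passed, 11.2% higher and 8.21% lower. In each comparison 1 of 9 members passed in either direction, a smaller share than that of all genes, while a count of 1 in 1 direction is about the directional share. The median log2 difference of the members was 0.24, 0.21 and 0.51, beside -0.03, 0.02 and 0.04 over all genes, and 7 of 9 were above 0 in each.

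**Figure D4:**
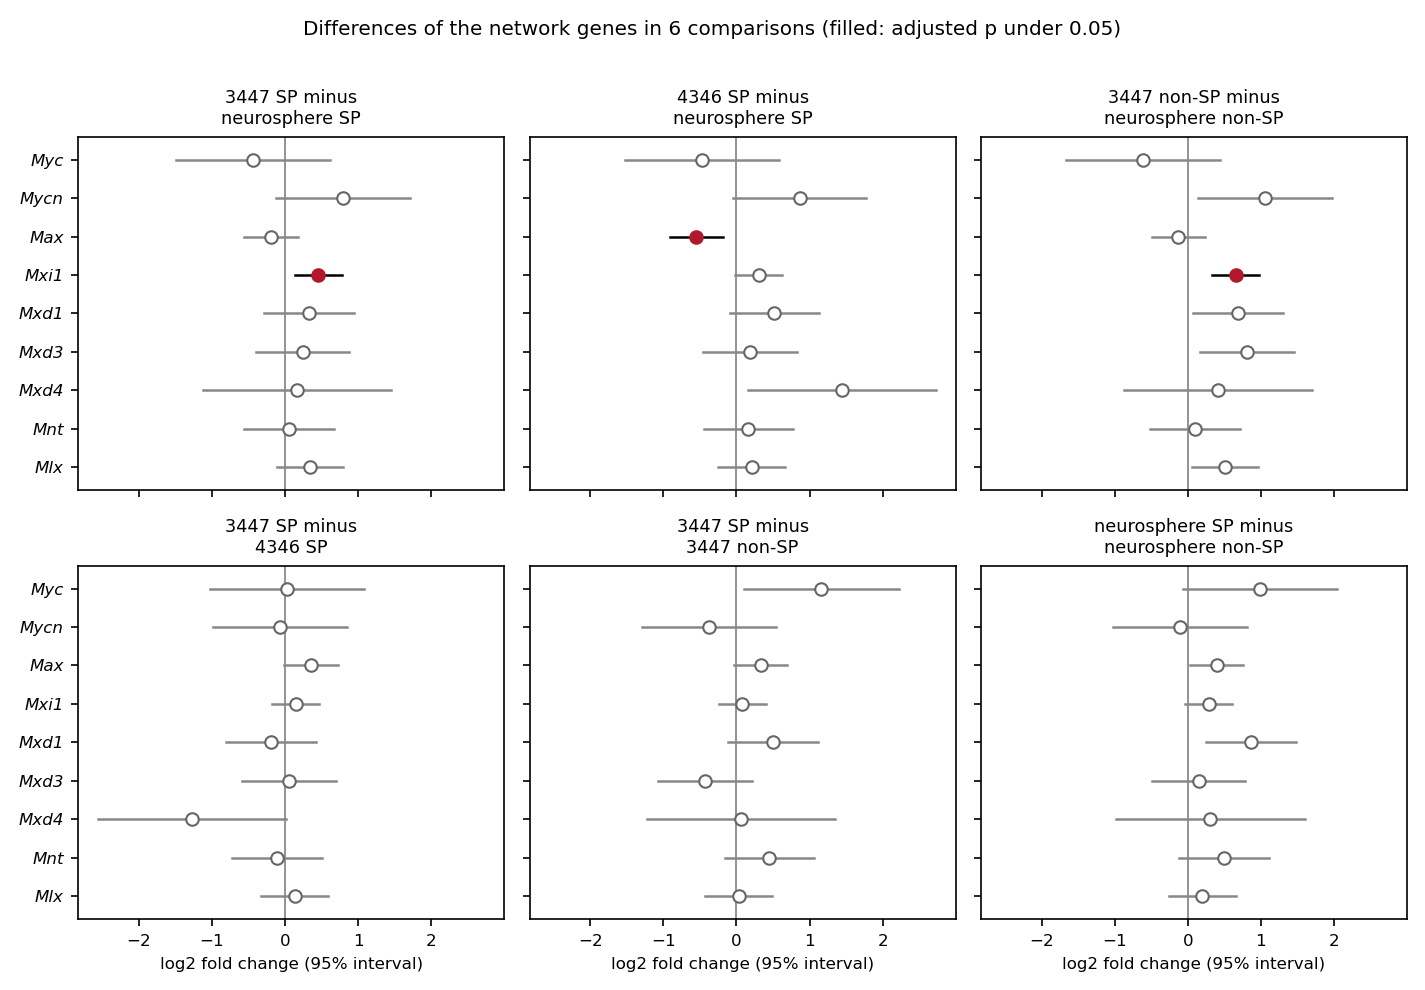
Log2 fold change with 95% interval for the 9 genes in 6 comparisons, where filled red points have an adjusted p under 0.05. The red points are Mxi1 in 3447 SP (0.45) and 3447 non-SP (0.66) and Max in 4346 SP (-0.55), each against the neurosphere cells of the same sort.

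Of the activators, Myc read 899, 580.0 and 455 in 4346 SP. These lie in the range of the neurosphere SP arrays given above. Its log2 differences from neurosphere SP were -0.44 ± 0.50 in 3447 (adjusted p = 0.589) and -0.47 ± 0.50 in 4346 (adjusted p = 0.533), and in the non-SP it was -0.62 ± 0.50 (adjusted p = 0.437). Without neurosphere SP array 3, which read 2230.0, the SP differences were 0.24 in 3447 (adjusted p = 0.756) and 0.22 in 4346 (adjusted p = 0.757), so the direction and the first place of neurosphere SP in the order of groups rest on that array. By group mean, Myc ran from neurosphere SP (1093 ± 988, SD, n = 3) through 3447 SP (658 ± 174), 4346 SP (644 ± 229) and neurosphere non-SP (481 ± 242) to 3447 non-SP (278 ± 61.0). Each neighbour in this order overlapped the next. Its spread within groups was larger than that of 90.2% of genes.

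Mycn, the activator of neural progenitors, had estimates above 0 in all 3 comparisons. On 1417155_at its signals were 739, 713 and 1436 in 3447 SP and 1182, 1085 and 667 in 4346 SP, against 309, 579.8 and 685 in neurosphere SP. The deposited signals of 3447 SP and neurosphere SP did not overlap, but the normalized ones did. The log2 differences were 0.80 ± 0.43 (adjusted p = 0.221) and 0.86 ± 0.43 (adjusted p = 0.159). In the non-SP, 1866, 1002 and 898 in 3447 stood against 388, 1050.1 and 401 in neurospheres. These overlapped through neurosphere array 2, and the difference was 1.06 ± 0.43 with an interval of 0.14 to 1.97 (adjusted p = 0.102). Without that array it was 1.52 (adjusted p = 0.0228). This was the 1 of 15 fits leaving out 1 array in which Mycn passed, and the highest limma adjusted p among them was 0.352. All 5 group means of Mycn overlapped their neighbours, from 1255 ± 532 in 3447 non-SP to 524 ± 194 in neurosphere SP. The other 2 Mycn probe sets did not pass the filter.

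Max, the shared partner of the Myc and Mxd proteins, was lower in 4346 SP. Its signals there were 2469, 2531 and 2045, against 3942, 2625 and 3817 in neurosphere SP. Every 4346 array was below every neurosphere SP array, although 2531 and 2625 are close. Max fell by 0.55 ± 0.17 on the log2 scale, to 0.684 of the neurosphere SP level (adjusted p = 0.0292). The call was lost without array 3 of 4346 SP (-0.46, adjusted p = 0.0862), without neurosphere SP array 1 (-0.45, adjusted p = 0.118) or array 3 (-0.46, adjusted p = 0.109), with each array centred on its median (-0.35, adjusted p = 0.513), and with only the arrays of the groups compared (adjusted p = 0.137). Among alternatives added after the data were seen it was lost without array 3 of both tumour SP groups (adjusted p = 0.101) and without both neurosphere arrays numbered 3 (adjusted p = 0.118). It held in 22 of 29 alternatives in all.

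In 3447 SP Max was at -0.19 ± 0.17 (adjusted p = 0.483), and in the non-SP at -0.13 ± 0.17 (adjusted p = 0.651). The direct comparison of 3447 SP with 4346 SP gave 0.36 ± 0.17 (adjusted p = 0.313), with no overlap, so a difference between the lines did not pass. By normalized mean, neurosphere SP was followed by 3447 SP, with overlap. Between 3447 SP and neurosphere non-SP (2761, 2380 and 2617) the arrays did not overlap.

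Among the repressors, Mxi1 gave the clearest difference. Its signals on 1450376_at were 6815, 5912 and 7693 in 3447 non-SP and 3962, 3645 and 5158 in neurosphere non-SP. All 3 tumour arrays were above all 3 neurosphere arrays. Mxi1 was 1.58-fold higher, by 0.66 ± 0.15 on the log2 scale (adjusted p = 0.00574). The call held without each of the 15 arrays in turn, with adjusted p-values from 0.00231 to 0.0343, but not with each array centred on its median (0.84, adjusted p = 0.0617) or with the gene's more variable probe set (0.81, adjusted p = 0.246).

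In the SP the Mxi1 signals were 5889, 8108 and 6542 in 3447, against 5183, 4555 and 6273 in neurospheres. The deposited signals overlapped, since neurosphere array 3 was above 3447 array 1, and the normalized ones did not. Mxi1 rose 1.37-fold, by 0.45 ± 0.15 (adjusted p = 0.0465). This call is close to the threshold of 0.05. It held in 6 of 15 fits that left out 1 array, and was lost without 3447 SP array 2 (adjusted p = 0.172) or 3 (0.0957), neurosphere SP array 1 (0.116) or 2 (0.164), any of the 3 arrays of 3447 non-SP (0.0533 to 0.0608), 4346 SP array 1 (0.0512) or neurosphere non-SP array 1 (0.0522). In 4346 SP, with 5956, 7095 and 6385, the difference was 0.31 ± 0.15 (adjusted p = 0.157).

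A second Mxi1 probe set, 1425732_a_at, had group means of only 32.8 to 58.1 and lay above the array median on 5 of 15 arrays. In the fit of every probe set it gave -0.13 in 3447 SP and 0.81 in the non-SP (adjusted p = 0.354), where 7.47% and 7.62% of all probe sets were called. In the order of groups Mxi1 ran from 3447 SP (6846 ± 1140) and 3447 non-SP (6807 ± 891) through 4346 SP (6478 ± 575) and neurosphere SP (5337 ± 869) to neurosphere non-SP (4255 ± 798), with every neighbour overlapping the next.

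Mxd3, the repressor of cells in S phase, was higher in 3447 non-SP on 1 of its probe sets. On 1448878_at its signals were 250.5, 280.4 and 349.6 there, against 52.3, 106 and 109 in neurosphere non-SP. The arrays did not overlap. Mxd3 rose by 1.63 ± 0.45 on the log2 scale in the fit of every probe set (adjusted p = 0.0311, with 7.62% of all probe sets called). On 1438847_at, the brighter probe set that stands for the gene, the signals were 1257, 1438 and 1360 against 598, 932 and 779.9. These did not overlap either, and the difference was 0.81 ± 0.30 (adjusted p = 0.0745). The third probe set gave 1.61 ± 0.59 (adjusted p = 0.123). In the SP the 1438847_at differences were 0.24 in 3447 and 0.18 in 4346 (adjusted p = 0.636 and 0.711).

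In the same non-SP comparison 3 of 20 proliferation genes rose and none fell, with a median of 0.47. The shares of all genes were 11.2% higher and 8.21% lower. Mki67, a marker of dividing cells, had 3832 ± 997 against 1798 ± 522 (1.08 ± 0.32, adjusted p = 0.0251), and Mcm6, of the replication helicase, and Top2a, a topoisomerase of dividing cells, were the others. In the SP of each line against neurosphere SP, 0 of the 20 rose and 1 fell, with medians of 0.03 in 3447 and -0.03 in 4346. Of all genes 8.96% and 10.3% fell there. The part of the proliferation genes in the Mxd3 value was not tested.

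Mxd4, a repressor of differentiating cells, had its highest mean in 4346 SP. On 1434378_a_at it read 1103, 1148 and 3650.2 there, 620.0, 685 and 752 in 3447 SP, and 406, 374 and 1290.5 in neurosphere SP. The value of 3650.2 came from array 3 of 4346 SP, the array with the actin 3′ to 5′ ratio of 5.30. The part of that array's RNA in the Mxd4 value was not tested. The 2 tumour lines did not overlap, but 1 neurosphere array lay above 2 of the 4346 arrays. The difference from neurosphere SP was 1.45 ± 0.61 (adjusted p = 0.0948), and that of 3447 SP from 4346 SP was -1.28 ± 0.61 (adjusted p = 0.302). Without both neurosphere arrays numbered 3, an alternative added after the data were seen, Mxd4 was higher in 4346 SP by 2.00 (adjusted p = 0.00255) and in 3447 non-SP by 1.24 (adjusted p = 0.0476). In 4346 SP it passed in 5 of 29 alternatives and in 2 of 15 fits that left out 1 array, and its lowest value was 0.89. In 3447 non-SP it passed in 1 of 29, and its lowest value was -0.05. The other 3 Mxd4 probe sets were 1.11, 0.73 and 1.23 higher in 4346 SP and did not pass in the fit of every probe set, where 9.77% were called. The spread of Mxd4 within groups exceeded that of 96.4% of genes.

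For Mxd1 the tumour and neurosphere cells differed by 0.33 ± 0.29 in 3447 SP (adjusted p = 0.481), 0.52 ± 0.29 in 4346 SP (adjusted p = 0.209) and 0.69 ± 0.29 in the non-SP (adjusted p = 0.112). The 3447 non-SP arrays were all above the neurosphere non-SP arrays. In 4346 SP its 1434830_at signals were 1561, 1034 and 639.6. Without array 3 the 4346 value was 0.84 (adjusted p = 0.0343). This was the 1 of 15 fits leaving out 1 array in which it passed, and the highest limma adjusted p among them was 0.633.

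Mnt, the repressor that most cell types make throughout, did not pass in any comparison, and its values lay between 0.05 and 0.16 in the 3 comparisons of tumour with neurosphere cells. Its signals were 771, 829.8 and 863 in 3447 SP, 876, 662 and 1143 in 4346 SP, and 767, 533 and 1082 in neurosphere SP. All 3 groups overlapped. The 95% interval for 3447 SP, from -0.56 to 0.67, was wider than its estimate of 0.05.

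Mlx, the second shared partner, had estimates above 0 in the tumour groups on 1418437_a_at, the probe set that stands for the gene, and did not pass. Its signals there were 493, 545 and 529 in 3447 SP, 568, 447 and 514 in 3447 non-SP and 419, 478 and 496 in 4346 SP. In neurospheres they were 417, 401 and 357 in the SP and 423, 348 and 295 in the non-SP. The deposited signals did not overlap in any of the 3 comparisons, but on the normalized scale 4346 SP overlapped neurosphere SP. The log2 differences were 0.34 ± 0.21 (adjusted p = 0.301), 0.21 ± 0.21 (adjusted p = 0.524) and 0.51 ± 0.21 (adjusted p = 0.115). The second probe set, 1425930_a_at, was above the array median on all 15 arrays and gave -0.16 ± 0.35 in 3447 SP, -0.29 ± 0.35 in 4346 SP and 0.33 ± 0.35 in the non-SP, so the 2 probe sets disagreed in sign in the SP.

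On the normalized scale 3 of 9 members were higher with no overlap in 3447 SP (Mxi1, Mxd3 and Mlx) and 4 of 9 in the non-SP (these and Mxd1). In 4346 SP 1 was lower (Max). The shares of all genes with no overlap were 36.0% in 3447 SP (18.2% higher), 38.8% in the non-SP (21.3% higher) and 36.9% in 4346 SP (17.4% lower). Between the SP of the 2 lines no member passed, where 1.65% of all genes did. Max was higher and Mxd4 lower in 3447 with no overlap, where 9.01% of all genes were higher and 10.6% lower in this way (19.6% in all).

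The genes nearest to Myc over the 15 arrays, by the root mean square difference of centred log2 signals, were Gadd45a (0.483), Tgfbr2 (0.492), Pik3ip1 (0.504) and Zfp217 (0.507), where the median gene was at 0.906. Those nearest to Mycn were Lrba (0.356), Rem2 (0.370), Pgm2l1 (0.374) and Frmd5 (0.384), with a median of 0.813. The values describe likeness on these arrays only.

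Of 6 other genes of the network on the array, Mycl, Mga, Mlxip, Mlxipl, Usf1 and Usf2, 5 were tested, all but Mlxipl. Mga, a Max partner that represses, was the 1 that passed, in 4346 SP against neurosphere SP (5459 ± 582 against 4025 ± 620, 0.43 ± 0.15, adjusted p = 0.0443), and the call held in 12 of 29 alternatives. In that comparison 24.3% of all genes passed. Mlxip, the partner of Mlx, had log2 differences from -0.09 to 0.14 in the 6 comparisons of groups.

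The Sin3 and histone deacetylase corepressors that the Mxd proteins recruit were tested for 8 genes. Rbbp7, a histone-binding subunit of these complexes, was higher in all 3 comparisons, by 0.42 ± 0.08 in 3447 SP (adjusted p = 0.00182), 0.35 ± 0.08 in 4346 SP (adjusted p = 0.00573) and 0.50 ± 0.08 in the non-SP (adjusted p = 0.000473). Hdac2, a deacetylase of the complex, fell in 3447 SP by 0.52 ± 0.16 (adjusted p = 0.0303) and in 4346 SP by 0.68 ± 0.16 (adjusted p = 0.00528), where its signals were 2673 ± 480 and 2399 ± 210 against 3821 ± 305. The other 6 corepressor genes did not pass in the SP, nor the other 7 in the non-SP. Of all genes 19.6% passed in 3447 SP, 24.3% in 4346 SP and 19.4% in the non-SP, so these counts are about those shares or below. Of the 10 tested coactivators and chromatin partners of Myc 0 passed by limma in these 3 comparisons, and 2, 2 and 1 had an unadjusted p under 0.05, where 32.3%, 36.6% and 31.7% of all genes did.

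Of 13 regulators of Myc protein stability and activity, Huwe1, a ubiquitin ligase for Myc, was higher in line 3447, at 1767 ± 288 against 955.6 ± 107 in the SP (0.84 ± 0.22, adjusted p = 0.0119) and by 0.86 ± 0.22 in the non-SP (adjusted p = 0.00987). Usp37, a deubiquitinase, fell in both tumour SP groups and Fbxo28, a ubiquitin ligase subunit, in 4346 SP. The calls were 2 of 13 in 3447 SP, 2 in 4346 SP and 1 in the non-SP, smaller shares than the 19.6%, 24.3% and 19.4% of all genes.

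Of 29 tested genes of ribosome biogenesis, the class of Myc targets found in most cell types, none rose. In 3447 SP 3 fell, with Grwd1, a ribosome assembly factor, at 1502 ± 287 against 2716 ± 618 (-0.85 ± 0.24, adjusted p = 0.0194). In 4346 SP 2 fell, with Nop58, of the nucleolar methylation complex, at 1091 ± 212 against 1915 ± 264 (-0.83 ± 0.25, adjusted p = 0.0233). In the non-SP 0 passed and 1 had an unadjusted p under 0.05. The medians were -0.26, -0.18 and -0.16, with 7, 8 and 8 of 29 above 0, while the median of all genes lay between -0.03 and 0.04. Of all genes 8.96%, 10.3% and 8.21% fell, so the counts of 3 and 2 are near or below that share.

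Of 23 tested metabolic targets, 6 fell and none rose in 3447 SP, where 8.96% of all genes fell and 10.7% rose. Mthfd1, of folate metabolism, had 4419 ± 655 against 7696 ± 977 (-0.75 ± 0.19, adjusted p = 0.0108), and Shmt2, the mitochondrial serine hydroxymethyltransferase, had 1032 ± 88.8 against 1981 ± 158 (-0.96 ± 0.25, adjusted p = 0.0116). In 4346 SP Mthfd1 fell by 0.89 ± 0.19 (adjusted p = 0.00289), Tfrc, the transferrin receptor, fell and Mthfd2, a mitochondrial folate enzyme, rose. In the non-SP Prps2, of nucleotide synthesis, rose and Tfrc fell. The medians were -0.26, 0.03 and -0.04.

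Of 18 tested targets of the cell cycle, translation and mitochondria, 1 passed in 3447 SP, 2 in 4346 SP and 2 in the non-SP, all lower. The shares of all genes that fell were 8.96%, 10.3% and 8.21%, so these counts are about that share. Ccnd2, cyclin D2, which drives entry into S phase, had 259 ± 139 in 3447 SP against 10430 ± 1886 in neurosphere SP (-5.59 ± 0.69, adjusted p = 2.80e-05), and 28.0 ± 26.1 against 11928 ± 2359 in the non-SP (-8.31 ± 0.69, adjusted p = 3.67e-07). The medians were -0.20, -0.22 and -0.16.

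Of 13 genes that Myc commonly represses, 6 rose and 3 fell in 3447 SP, 5 rose and 2 fell in 4346 SP, and 6 rose and 2 fell in the non-SP, beside 19.6%, 24.3% and 19.4% of all genes called in either direction. Ndrg2, a gene of differentiated glia, had 1654 ± 127 and 1786 ± 129 in the SP of 3447 and 4346 against 304 ± 190 in neurosphere SP, log2 differences of 2.50 ± 0.31 (adjusted p = 3.08e-05) and 2.60 ± 0.31 (adjusted p = 1.91e-05). Cdkn1a, the p21 inhibitor of cell division and also a target of p53, was 2.27 ± 0.37 higher in 3447 SP (adjusted p = 0.000375). Col1a1, a fibrillar collagen, had 1843 ± 938 in 3447 SP and 7532 ± 149.9 in 4346 SP against 100.4 ± 30.5 in neurosphere SP (adjusted p = 0.000132 and 1.66e-06). Gadd45g, a stress-responsive growth arrest gene, went the other way in 4346 SP, with 387 ± 142 against 2288 ± 758 (-2.50 ± 0.33, adjusted p = 4.40e-05). The medians were 0.80, 0.64 and 0.76. Oligodendrocyte markers were also higher in the tumour groups, with the summed signals given above, and their part in these values was not tested.

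Of 4 tested targets of the Mlx partners, 2 rose in the SP of each line and 1 in the non-SP. The shares of all genes that rose were 10.7% in 3447 SP, 14.0% in 4346 SP and 11.2% in the non-SP. Arrdc3, an arrestin-domain gene, was 1.17 ± 0.23 higher in 3447 SP (adjusted p = 0.00185), 0.68 ± 0.23 higher in 4346 SP (adjusted p = 0.0427) and 0.82 ± 0.23 higher in the non-SP (adjusted p = 0.0196). Txnip, an inhibitor of glucose uptake, had 6801 ± 2363 in 3447 SP and 7399.8 ± 2605 in 4346 SP against 2834 ± 1586 in neurosphere SP. Its differences were 1.38 ± 0.47 (adjusted p = 0.0490, a call that held in 12 of 29 alternatives) and 1.42 ± 0.47 (adjusted p = 0.0367, held in 22). Its 3447 SP arrays of 4458, 9185 and 6761 overlapped neurosphere SP only through neurosphere array 3.

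In the comparisons of SP with non-SP, 0 of 143 tested genes of these lists passed the limma test in either source, and 15 in line 3447 and 10 in neurospheres had an unadjusted p under 0.05. Of all genes 7.21% and 3.59% did. Of the 13 genes that Myc commonly represses, 11 were above 0 in line 3447 and 13 in neurospheres. An unadjusted p under 0.05 was found for 2 and 6 of them. Of the targets, 9 and 15 of 29 genes of ribosome biogenesis were above 0. The counts were 6 and 15 of 23 for metabolism, and 7 and 4 of 18 for the cell cycle, translation and mitochondria. In the 3 comparisons of tumour with neurosphere cells 26, 22 and 18 of 143 passed, smaller shares than the 19.6%, 24.3% and 19.4% of all genes.

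The calls of the listed genes differed in how far they rested on single arrays. In all 15 fits that left out 1 array, Ndrg2, Cdkn1a, Col1a1, Ccnd2, Rbbp7, Mthfd1 and Shmt2 kept each call given above, as did Gadd45g and Hdac2 in 4346 SP and Arrdc3 in 3447 SP. Huwe1 lost its call in 3447 SP without 3447 SP array 2, and its call in the non-SP without 3447 non-SP array 3. Grwd1 lost its call without array 1 of 3447 SP or of neurosphere SP, and Nop58 without 4346 SP array 3 or neurosphere SP array 1 or 3. Hdac2 in 3447 SP kept its call in 11 of the 15 fits, Mki67 in 11, Mcm6 in 12 and Top2a in 6. For Mga the count was 6, for Txnip 7 in 3447 SP and 11 in 4346 SP, for Usp37 4 and 10, and for Arrdc3 9 in 4346 SP and 13 in the non-SP. Mthfd2 and Fbxo28 kept theirs in 11, Prps2 in 12 and Tfrc in 12, 11 and 11.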

How the data were processed

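Expression was measured on 15 arrays, 3 per group. The authors deposited intensities, linear MAS5 signals from Affymetrix Expression Console per the submitters' processing notes; the versions are not given in the sources used here. Per the labels, RNA from the sorted cells was purified on small columns, then amplified (NuGEN Ovation Pico) and labelled. Amplification can alter the signals. Trimmed of 2% at both ends, the mean signal was 500 on each array. For arrays, their number limits the precision.

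Of 45101 probe sets, 64 controls were left out. Of the rest, 34945 carried 1 gene symbol, 932 several and 9160 none, and 34741 were found in RefSeq by Entrez identifier, where 0 symbols differed. Array medians differed by 2.23 times, above the limit of 1.5, so signals were quantile normalized. After log2(signal + 16), probe sets above their array's median in at least 3 arrays were kept (26256), and the one with the highest mean stood for each gene (11908 genes). Fold changes with the added 16 understate the change of dim genes. limma 3.58.1 (R 4.3.3) fitted 5 group means over all 15 arrays, with 10 residual degrees of freedom, a spread that follows the level, two-sided tests and Benjamini-Hochberg adjustment at 0.05. A second fit used all 45037 probe sets with no filter. The scripts were tested on simulated data. There were 7 planned comparisons, and the average of the 2 SP effects was added after the data were seen.

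Members and gene lists were chosen with earlier results of these data known. The rule for named genes took all 9 members, up to 3 genes of smallest p per list and comparison, and the 4 genes nearest to Myc and to Mycn. The other cell type lists (astrocyte, oligodendrocyte progenitor, neuron, endothelial, pericyte, ependymal, erythroid) were used as summed signals. Counts of single genes passed are given beside the sums for the astrocyte and oligodendrocyte progenitor lists. Deviations from group means of neurosphere SP and non-SP arrays of the same number correlated at 0.577, 0.522 and 0.621. These arrays were therefore paired in alternative fits, named as paired where given, while the main fit used no pairing. In line 3447 the values were -0.225, -0.249 and -0.120, and its arrays stayed unpaired in the results given as paired. The highest correlation between any 2 arrays was 0.990, and no array was a copy of another. Promoter sequences are from RefSeq, GRCm38.p6.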

Additional observations from a re-analysis of the deposited data

Results flagged for a closer look

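Ccnd2, a cyclin gene and target of Myc, differed between the 2 tumour lines, whose SP cells were each set against the same neurosphere SP arrays. It was lower in 3447 SP than in 4346 SP by a log2 difference of -4.29 ± 0.69 (limma adjusted p = 0.00345), with 259 ± 139 against 5656 ± 4087 (SD, n = 3 each). No member of the network passed a test of a difference between the lines or between the SP effects of line 3447 and neurospheres. Groups of 3 arrays are too small for a test of single outlying arrays.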

How the results depend on the processing

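Beside leaving out each of the 15 arrays, 14 other settings were tried, and more were added after the data were seen, which made 29 or 32 per comparison. In 2196 recomputed member values, 101 estimates turned in sign and 23 passed only in an alternative. A call was lost in 26 that kept their sign and in 1 that turned. In 3447 SP against neurosphere SP the 1 member call (Mxi1) became 0 with deposited signals, median centring, no filter, a filter in all 15 arrays, the mean or the most variable probe set, no trend, only the compared groups, or without array 3 of both tumour SP groups. In 4346 SP the 1 call (Max) became 2 with array weights (with Mxd1) or the replicate block of a common number (with Mxd4), and 0 with only the compared groups. The 1 call was of Mxd4 in place of Max with median centring or without both neurosphere arrays numbered 3, and of Mxd1 without array 3 of both tumour SP groups. In the non-SP the 1 call became 4 with array weights, 2 with the mean of probe sets, only the compared groups, without array 3 of both tumour SP groups or without both neurosphere arrays numbered 3, and 0 with the most variable probe set. Leaving out 1 array gave 0 to 1, 0 to 2 and 1 to 3 calls. In the averaged SP effect 0 became 1 with the neurosphere arrays paired (Myc) and 2 when array 3 of both tumour SP groups was also left out (Myc and Mxd1). The cause was not tested. With the most variable probe set Mxi1 in 3447 SP was at -0.13, Fbxo28 in 4346 SP at 0.10 and Mcm6 in the non-SP at -0.012. Elsewhere the replicate block, in neurospheres only or within each origin, changed no member's call.

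Median centring put the median of all genes at -0.30 and 0.06 in the SP against non-SP comparisons, at -0.18, 0.19 and 0.18 in those against neurospheres and at -0.38 between the lines. It changed the higher and lower calls from 1270 and 1067 to 731 and 842 (3447 SP), 1663 and 1228 to 1669 and 545 (4346 SP), 1332 and 978 to 1199 and 553 (non-SP) and 55 and 142 to 23 and 344 (between lines). The number of all genes called in line 3447 SP against non-SP was 1, and 50 with array weights, 18 with only the compared groups and 107 with neurosphere pairs and array 3 of both tumour SP groups left out. In neurospheres it was 2, and 30 with the last of these. For the averaged effect it was 20, and 4 with no trend, 95 with neurosphere pairs and 282 with those pairs and the arrays left out. Between the lines it was 197, and 54 with the filter in all 15 arrays. Of 48 values of named list genes, 14 kept their call in all alternatives. Dim probe sets and groups of 3 arrays limit what can be seen.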

Other observations

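The sums of marker signals given here were not tested. The summed signal of 6 endothelial markers was 452, 613 and 2089 in order of size on the neurosphere SP arrays, and 337 to 433 on the neurosphere non-SP arrays. On the tumour arrays it was 62.1 to 221. Of the 6, 5 lay below the array median on all 3 arrays of 3447 SP, of 4346 SP and of neurosphere non-SP, and 6 in 3447 non-SP. In neurosphere SP this held for only 2, Pecam1 and Cdh5.

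Of 7 oligodendrocyte progenitor markers the summed signal was 12374 to 17397 in 3447 SP, 19257 to 22190.1 in 3447 non-SP and 19375 to 24523 in 4346 SP. It was 7087 to 12805 in neurosphere SP and 9468 to 13470 in neurosphere non-SP, where Sox10 lay below the array median in both groups. As single genes, 5 of the 7 passed higher and 2 lower in 3447 SP against neurosphere SP. In 4346 SP 5 passed higher and 1 lower, and in the non-SP 4 and 0. Of all genes 10.7%, 14.0% and 11.2% passed higher and 8.96%, 10.3% and 8.21% lower. Astrocyte markers (8 genes) summed to 11579 to 21060 on the tumour arrays and to 17591 to 32737 on the neurosphere arrays. In the 3 tumour groups 1 or 2 of the 8 lay below the median on all 3 arrays, Aqp4 in each. As single genes against neurosphere cells, 1 passed higher and 4 lower in 3447 SP, 1 and 2 in 4346 SP, and 2 and 3 in the non-SP. Of 8 neuron markers the sum ran from 3937 to 8599. In each group 2 to 4 of the 8 lay below the median on all 3 arrays, Stmn2 in all 5 groups. Pericyte markers (6 genes) summed to at most 400, and the 2 erythroid genes to at most 26.4. Ependymal markers (5 genes) ran from 302 to 1421. Of the 5, 2 lay below the median on all 3 arrays of 3447 SP and of neurosphere SP, and 4 in both non-SP groups. In 4346 SP this held for 1, Foxj1, which was among those below in every group.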
